A study of Coturnix japonica with 16 samples.

Results

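9 genes of hepatic fuel handling were followed across the livers of 16 Japanese quail (Coturnix japonica). They were G0S2, ANGPTL4, PPP1R3B, PPP1R3C, PCK1, IGFBP1, PDK4, PPARGC1A and SIK1 (gene number 107323996). The genes were chosen by symbol, with their group means, their bird-to-bird spread and their correlation in these same livers already known. Those quantities are therefore given as descriptions. They are 9 of the 20308 genes in the deposited table, and all 9 were among the 13748 genes that passed the filter on low counts.

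Each bird was 12 weeks old, had fasted for 16 h and received 1 oral dose of 4 mL/kg by gavage into the crop. The dose was corn oil alone (the solvent group, 6 birds) or corn oil with ethinylestradiol at 0.5 mg/kg (5 birds) or 5 mg/kg (5 birds). Ethinylestradiol is a synthetic estrogen. All birds were kept on 8 h of light and 16 h of dark, and RNA was taken from the left lobe of the liver. The sources used here do not give the time from dose to sampling, the sex of the birds or whether they ate after dosing.

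The liver stores glucose as glycogen and fat as triacylglycerol after a meal, and releases glucose and oxidises fat between meals. Insulin and glucagon set many of the transcripts involved. G0S2 protein blocks the lipase PNPLA2, which starts triacylglycerol breakdown, and ANGPTL4 is a secreted inhibitor of lipoprotein lipase. PPP1R3B and PPP1R3C carry protein phosphatase 1 to glycogen, where it switches glycogen synthase on. PCK1 is the cytosolic phosphoenolpyruvate carboxykinase of gluconeogenesis; in chicken and pigeon liver the mitochondrial form of the enzyme predominates. IGFBP1 is a secreted binding protein of insulin-like growth factors whose transcription insulin represses in mammals. PDK4 is a kinase that switches pyruvate dehydrogenase off and so spares glucose. PPARGC1A is a transcriptional coactivator of mitochondrial and gluconeogenic genes, and SIK1 is a kinase whose transcript is induced by cyclic AMP. The 9 genes do not sort simply into fed and fasted genes: ANGPTL4, for example, is known in mammals as a gene that fasting induces. Since feeding was not recorded for single birds, the genes are called here by name, as the G0S2 group (G0S2, ANGPTL4, PPP1R3B and PPP1R3C) and the PCK1 group (PCK1, IGFBP1, PDK4, PPARGC1A and SIK1). This split was made with the levels and the correlation of the genes in these livers known.

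Library totals were 24020983 to 38156102 counts in solvent birds, 15173021 to 30106089 at 0.5 mg/kg and 15825784 to 46192737 at 5 mg/kg. Albumin, the main secreted protein of hepatocytes, took 6.97% to 13.7% of counts. Over all genes, solvent replicate 1 stood apart on the first principal component, at -85.5 against -22.02 to 37.2 in the other 15 libraries. Genes on the Z chromosome, present once in female birds and in a pair in males, split the libraries by replicate number. The median deviation of these genes on the log2 scale was 0.14 to 0.27 in the 9 birds numbered 1 to 3 and -0.32 to -0.16 in the 7 numbered 4 to 6. In whole liver, fewer cells of a type and less RNA per cell cannot be told apart.

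The G0S2 group was low in every bird given 0.5 mg/kg and varied widely in the other groups. For G0S2 (gene number 107324933) the solvent birds ran from 4.85 through a median of 73.8 to 373 CPM (counts scaled to a common library size). The 0.5 mg/kg birds, replicates 1 to 5, had 1.79, 3.46, 2.35, 2.61 and 1.82 CPM, and the 5 mg/kg birds had 134, 1.56, 24.8, 2.33 and 162 CPM. All 5 birds at 0.5 mg/kg lay below every solvent bird, whereas the 5 mg/kg birds were divided. Replicate 4 lay in the range of the lower dose, replicate 2 just below it, and replicates 1 and 5 above 100 CPM. Means were 138 ± 162 CPM in solvent birds (SD, n = 6), 2.41 ± 0.687 CPM at 0.5 mg/kg (n = 5) and 64.9 ± 76.98 CPM at 5 mg/kg (n = 5). The mean at 0.5 mg/kg was thus 57.6-fold lower than in solvent birds, a log2 fold change of -5.85 with a standard error (SE) of 1.44. The size depends on the highest solvent birds: the means of log2 CPM differed by -4.18, and the fitted value was -5.25 without solvent replicate 3. In solvent and 5 mg/kg birds the SD exceeded the mean.

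ANGPTL4 (gene number 107325518) ranked the birds much as G0S2 did. Solvent birds ran from 5.16 through a median of 47.8 to 246 CPM. The 0.5 mg/kg birds had 13.4, 9.51, 8.39, 4.56 and 15.5 CPM, and the 5 mg/kg birds had 77.3, 3.65, 37.4, 4.01 and 138 CPM. The groups overlapped, because solvent replicates 2 and 6, at 10.2 and 5.16 CPM, lay inside the range of the 0.5 mg/kg birds. The mean was 8.89-fold lower at 0.5 mg/kg than in solvent birds (log2 fold change -3.15, SE 1.05), and at 5 mg/kg the log2 fold change from solvent was -0.81 (SE 0.95). The means of log2 CPM differed by -2.08 between 0.5 mg/kg and solvent birds, and without solvent replicate 5 the fitted value was -2.56. Leaving out the highest bird of either group moved the 5 mg/kg value to -0.23 (solvent replicate 5) or -1.58 (5 mg/kg replicate 5).

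The pair of glycogen-targeting subunits showed the lowest values at 0.5 mg/kg as well. PPP1R3B (gene number 107313499) ran from 22.7 through 82.9 to 174 CPM in solvent birds. It was at 14.5, 11.3, 7.74, 15.2 and 12.1 CPM at 0.5 mg/kg, and at 99.7, 10.9, 30.3, 12.5 and 129 CPM at 5 mg/kg. Every 0.5 mg/kg bird was below every solvent bird, and the 5 mg/kg birds spread over both ranges. The mean at 0.5 mg/kg, 12.2 ± 2.97 CPM, was 8.01-fold below the solvent mean of 97.5 ± 62.6 CPM (log2 fold change -3.0, SE 0.66).

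PPP1R3C (gene number 107315941) ran from 29.3 through 82.3 to 221 CPM in solvent birds. It was at 10.51, 14.0, 9.69, 22.6 and 12.8 CPM at 0.5 mg/kg, and at 121, 17.6, 36.2, 13.1 and 49.7 CPM at 5 mg/kg. Again no 0.5 mg/kg bird reached the lowest solvent bird, while 5 mg/kg replicates 2 and 4 fell below it and replicates 1, 3 and 5 did not. The mean at 0.5 mg/kg was 6.97-fold lower than in solvent birds (log2 fold change -2.80, SE 0.62).

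**Figure D1:**
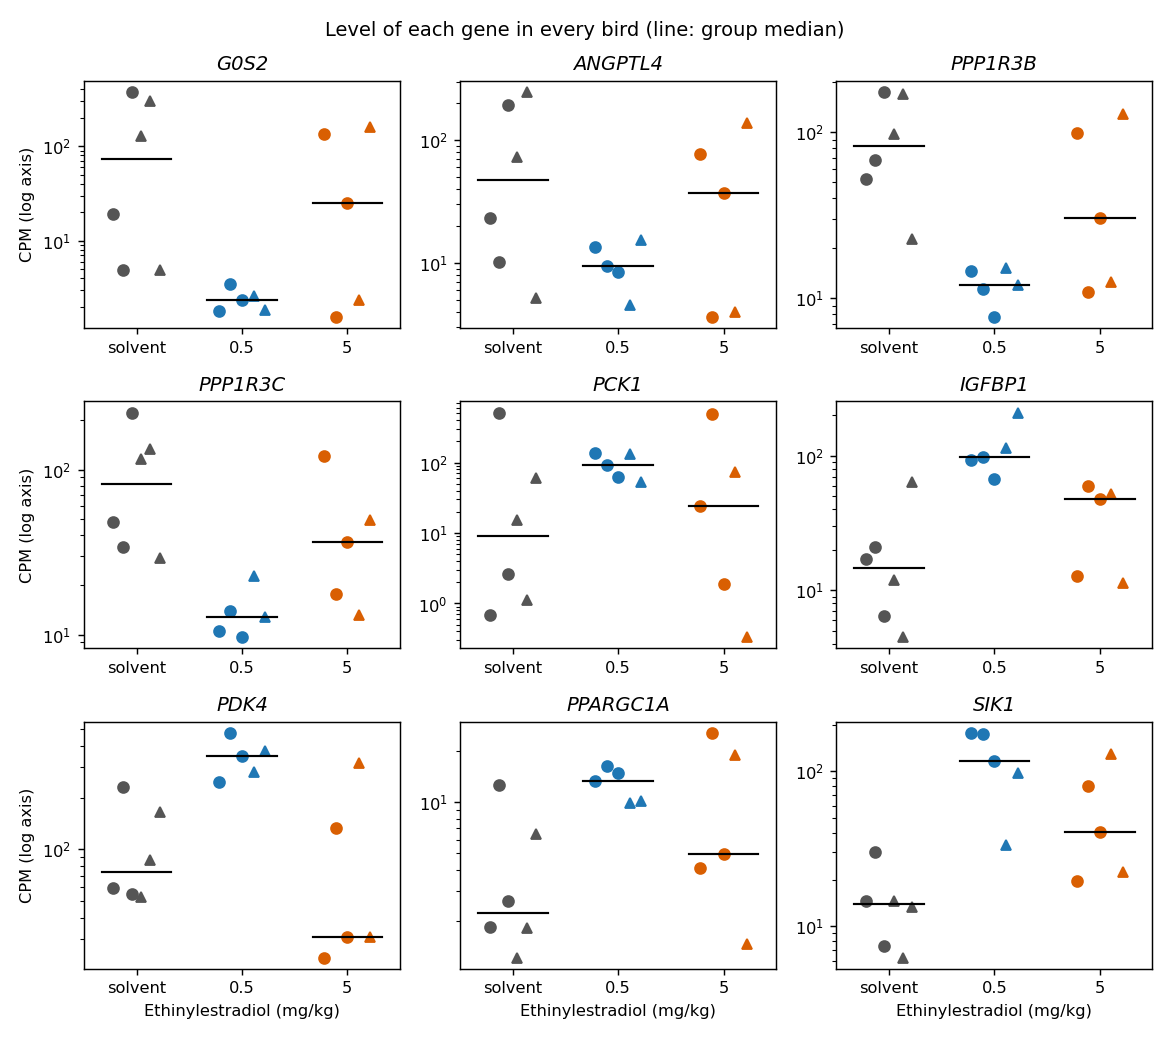
Level of each of the 9 genes in every bird, in CPM on a log axis, by group (solvent, 0.5 mg/kg and 5 mg/kg ethinylestradiol); each point is 1 bird (circles, replicate numbers 1 to 3; triangles, 4 to 6) and lines are group medians. The 0.5 mg/kg birds sit close together, low for G0S2 (1.79 to 3.46 CPM) and high for PDK4 (248 to 475 CPM). The solvent and 5 mg/kg birds spread more widely, and for both genes no solvent bird reaches the 0.5 mg/kg level while at least 1 of the 5 mg/kg birds does.

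In the PCK1 group, all 5 birds at 0.5 mg/kg lay above the solvent median for each of the 5 genes. PCK1 itself (gene number 107323226) had the widest range of the 9 genes. Solvent birds ran from 0.692 through a median of 9.07 to 511 CPM. The 0.5 mg/kg birds had 135, 93.4, 63.0, 130.2 and 52.7 CPM, and the 5 mg/kg birds had 24.0, 485, 1.90, 73.3 and 0.333 CPM. A single bird in each of the wide groups, solvent replicate 2 and 5 mg/kg replicate 2, stood above all 5 birds at 0.5 mg/kg, and the other 5 solvent birds included 4 that lay below all of them. The lowest value, 0.333 CPM in 5 mg/kg replicate 5, rested on 7 counts.

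The group means of PCK1 did not show this pattern. They were 98.5 ± 203 CPM in solvent birds, 94.8 ± 37.5 CPM at 0.5 mg/kg and 117 ± 208 CPM at 5 mg/kg, and the fitted log2 fold change of 0.5 mg/kg from solvent was -0.06 (SE 1.49). The means of log2 CPM differed by 3.11, with the 0.5 mg/kg birds higher, and the fitted value became 2.55 without solvent replicate 2. The comparisons of 5 mg/kg hung on the same kind of bird: the log2 fold change from solvent was 0.25, became -1.99 when 5 mg/kg replicate 2 was left out and 2.86 when solvent replicate 2 was.

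IGFBP1 (gene number 107309795) was highest at 0.5 mg/kg. Solvent birds ran from 4.50 through 14.6 to 64.0 CPM. The 0.5 mg/kg birds had 92.9, 97.6, 67.7, 113 and 209 CPM, and the 5 mg/kg birds had 12.7, 59.98, 48.0, 52.0 and 11.3 CPM. Every 0.5 mg/kg bird was above every solvent bird and above every 5 mg/kg bird. The mean of 116 ± 54.3 CPM at 0.5 mg/kg compared with 20.8 ± 22.02 CPM in solvent birds and 36.8 ± 23.0 CPM at 5 mg/kg.

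PDK4 (gene number 107309122) ran from 52.8 through 73.4 to 230 CPM in solvent birds. It was at 248, 475, 352, 281 and 374 CPM at 0.5 mg/kg, and at 23.4, 133, 31.0, 317 and 30.7 CPM at 5 mg/kg. All 0.5 mg/kg birds exceeded the solvent range, and 5 mg/kg replicates 1, 3 and 5 fell below it while replicate 4 lay above it. The mean was 3.20-fold higher at 0.5 mg/kg than in solvent birds (log2 fold change 1.68, SE 0.61). At 5 mg/kg the mean, 107 ± 126 CPM, was close to the 108 ± 73.0 CPM of solvent birds (log2 fold change -0.02, SE 0.60), and leaving out 5 mg/kg replicate 4 moved this to -0.99. It was -0.88 in the birds numbered 1 to 3 alone and 0.76 in those numbered 4 to 6.

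PPARGC1A (gene number 107314036) was high in every 0.5 mg/kg bird. Solvent birds ran from 1.22 through 2.24 to 12.6 CPM. The 0.5 mg/kg birds had 13.2, 16.2, 14.8, 9.88 and 10.2 CPM, and the 5 mg/kg birds had 4.09, 25.4, 4.96, 18.8 and 1.47 CPM. Solvent replicate 2 was the bird that made the solvent and 0.5 mg/kg groups overlap. The mean was 2.89-fold higher at 0.5 mg/kg than in solvent birds (log2 fold change 1.53, SE 0.66), and without solvent replicate 2 the log2 fold change was 2.20.

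SIK1 ran from 6.28 through 13.9 to 30.2 CPM in solvent birds. It was at 176, 173, 117, 33.6 and 96.9 CPM at 0.5 mg/kg, and at 19.7, 80.1, 40.7, 129 and 22.3 CPM at 5 mg/kg. Both dosed groups lay high: 5 of 5 birds at either dose were above the solvent median, and at 0.5 mg/kg 5 of 5 were above every solvent bird. The log2 fold change from solvent was 3.05 (SE 0.54) at 0.5 mg/kg and 2.02 (SE 0.53) at 5 mg/kg, the latter 1.43 in the birds numbered 1 to 3 and 2.72 in those numbered 4 to 6. Between the doses SIK1 was at -1.03 (SE 0.54) for the higher against the lower dose, but at 0.20 in the birds numbered 4 to 6 alone.

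**Figure D2:**
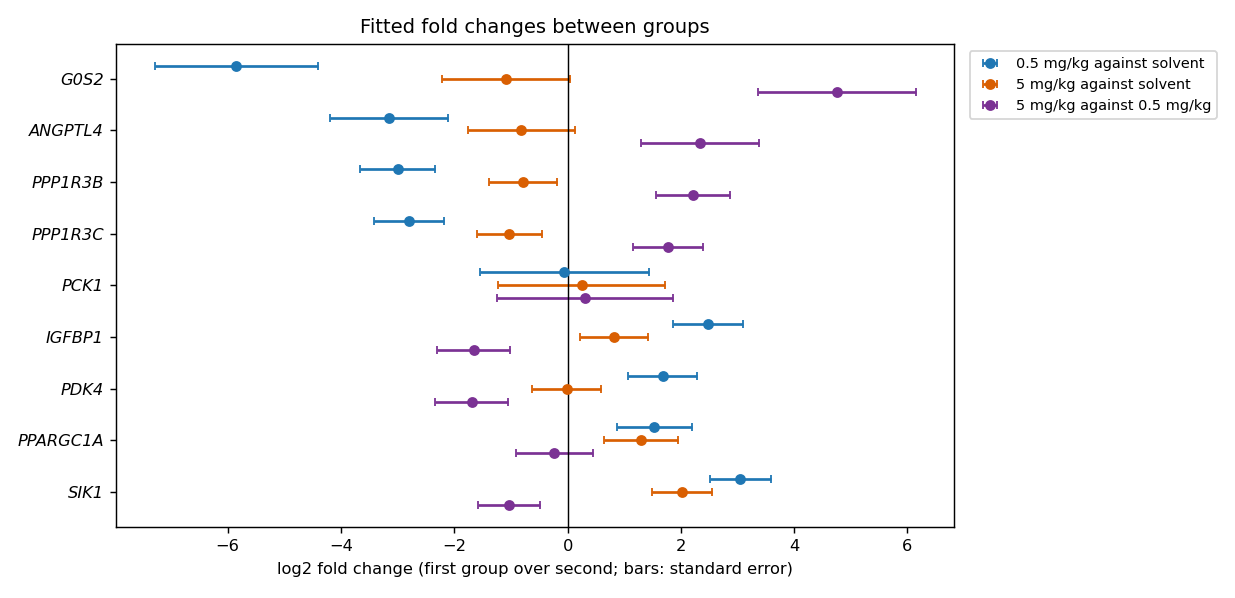
Fitted log2 fold change of each gene for the 3 comparisons between groups, with bars of 1 standard error. In 0.5 mg/kg against solvent the values run from -5.85 for G0S2 to 3.05 for SIK1, and the bars of PCK1 cross 0 in all 3 comparisons.

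Counted over the genes, 0 of 9 passed an adjusted p of 0.05 in edgeR's quasi-likelihood test of 0.5 mg/kg against solvent, beside 0% of the 13748 genes tested. At an unadjusted p under 0.05, 8 of 9 passed, 4 higher and 4 lower (8.25% of all genes). DESeq2 called 5 of the 9, G0S2, PPP1R3B, PPP1R3C, IGFBP1 and SIK1, and gave 2 others no adjusted p (0.617% of all genes with an adjusted p were called), and limma-voom called 0 (0%). With the 0.5 mg/kg and solvent birds alone in the fit, edgeR called SIK1 (0.0448% of genes). The groups did not overlap for 3 genes with 0.5 mg/kg above (IGFBP1, PDK4 and SIK1; 0.902% of all genes) and for 3 below (G0S2, PPP1R3B and PPP1R3C; 0.618%). A fold change beyond 1 on the log2 scale was seen for 8 of 9 (3.78% of all genes). The choice of genes used this comparison, so the counts are a description of the choice.

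For 5 mg/kg against solvent, edgeR called 0 of 9 (0.0436% of all genes), and 1, SIK1, had an unadjusted p under 0.05 (9.76%). DESeq2 called SIK1 (1.11%) and limma-voom called 0 (0.0145%). The groups did not overlap for 0 genes with 5 mg/kg above (0.553%) and for 0 below (0.415%), and 4 of 9 had a fold change beyond 1 on the log2 scale (4.37%). For 5 mg/kg against 0.5 mg/kg, edgeR called 0 of 9 (0%), and 6 had an unadjusted p under 0.05 (7.25%). DESeq2 called G0S2 (0.139%) and limma-voom called 0 (0%). IGFBP1 was the 1 gene whose 5 mg/kg birds all lay below the 0.5 mg/kg birds (0.546%), and 0 lay wholly above (0.64%). A fold change beyond 1 on the log2 scale was seen for 7 of 9 (3.67%). The comparisons share birds: both doses are set against the same solvent birds. The genes were chosen with the means of all 3 groups known, so these counts too are a description of the choice.

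The same birds stood at the ends of most of the 9 rankings. The 7 birds with the most G0S2 were solvent replicates 1, 3, 4 and 5 and 5 mg/kg replicates 1, 3 and 5, a number chosen after the values were seen. These 7 were also the 7 highest for ANGPTL4 and PPP1R3C and the 7 lowest for PCK1, PDK4 and PPARGC1A. For PPP1R3B, IGFBP1 and SIK1, 6 of the 7 were shared. The bird missing from each of the 3 was 5 mg/kg replicate 3, with solvent replicate 2 in its place for PPP1R3B and IGFBP1 and solvent replicate 6 for SIK1. The remaining 9 birds, low in G0S2, were solvent replicates 2 and 6, 5 mg/kg replicates 2 and 4, and all 5 birds at 0.5 mg/kg.

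Intermediate birds occurred between the high and the low ones. The largest step between neighbouring birds in G0S2 was from 24.8 to 128 CPM, 30.2% of the whole log2 range, and solvent replicate 1 at 19.4 CPM and 5 mg/kg replicate 3 at 24.8 CPM lay between the extremes. In PCK1 the largest step was from 2.60 to 15.5 CPM, 24.7% of the range. For the other 7 genes the largest step was 14.5% to 27.2% of the range.

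**Figure D3:**
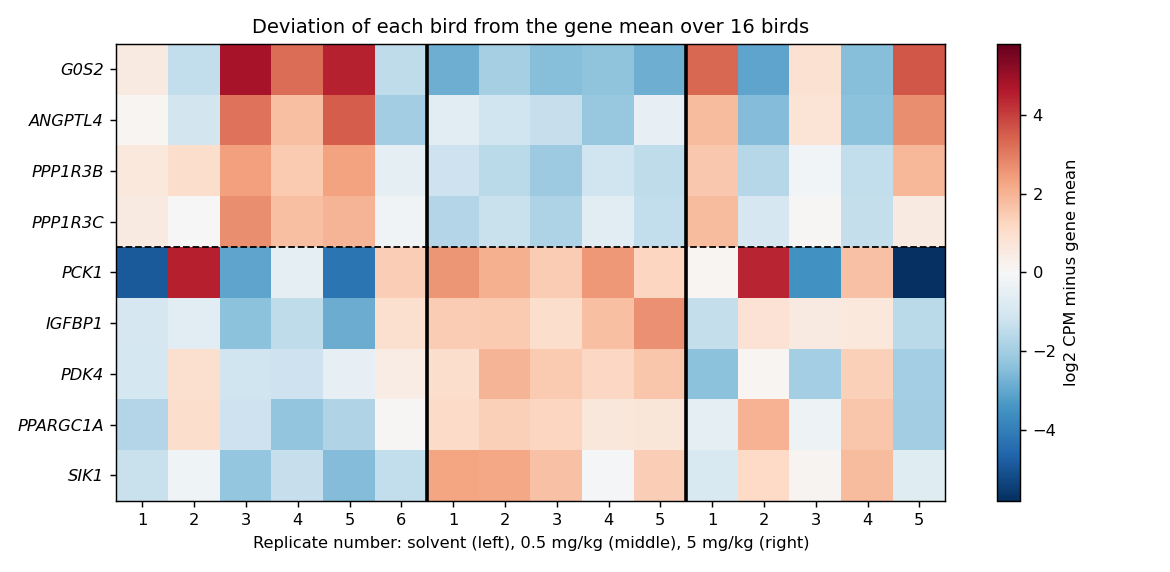
The 9 genes in each of the 16 birds, as log2 CPM after subtracting each gene's mean over the birds, with birds in columns by group and replicate number; red is above and blue below the gene's mean. The 5 birds at 0.5 mg/kg are alike, blue for G0S2 and red for PCK1. In G0S2 and PCK1 the solvent and 5 mg/kg birds show either colour. For IGFBP1, PDK4 and SIK1 no solvent bird is as high as the 0.5 mg/kg birds, and for G0S2, PPP1R3B and PPP1R3C none is as low.

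The coupling between the genes remained when group means were removed. After each gene's log2 CPM was centred within its group, Pearson's r over the 16 birds was 0.84 to 0.96 for the 6 pairs within the G0S2 group, with a median of 0.91. It was 0.53 to 0.85 for the 10 pairs within the PCK1 group, with a median of 0.65. The 20 pairs that crossed the groups had r from -0.86 to -0.50, with a median of -0.76. Spearman's rho had medians of 0.87, 0.62 and -0.72. Without the 2 birds farthest out on the first gene of a pair, median r was 0.88, 0.60 and -0.74. The genes share libraries and depth, and the correlation was part of how they were chosen, so no p is given. The split into the G0S2 and PCK1 groups was also made with that correlation known. The signs within and across the groups are therefore in part a description of the split.

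The tightest pair was G0S2 with ANGPTL4, the inhibitors of intracellular and of vascular lipolysis, at r = 0.96. The loosest pair in size was PPP1R3C with PCK1, at -0.50. In the PCK1 group, PPARGC1A had the highest values, at 0.85 with both PCK1 and PDK4, whereas IGFBP1 was nearer to the inverse of G0S2 (-0.86) than to PCK1 (0.55). All 36 pairs kept their sign when a smaller prior count was used, when solvent replicate 1 was left out and when birds were centred within number class as well. Among the 6 solvent birds alone, which received no estrogen, the medians were 0.95 within the G0S2 group, 0.62 within the PCK1 group and -0.72 across. Without the 2 solvent birds farthest out on the first gene of each pair, the median within the PCK1 group was 0.09, from -0.66 to 0.92. The median of 0.62 thus did not hold when birds were left out. The birds left out differed between pairs and few remained, so what it rested on cannot be told. With 5 birds in each dosed group, the sign alone of r is counted there. At 5 mg/kg all 6 and all 10 pairs within the groups of genes were positive and all 20 across them negative. At 0.5 mg/kg, where the genes varied least, the pattern was not seen: 2 of 6 and 4 of 10 pairs within were positive, and 9 of 20 across were negative.

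**Figure D4:**
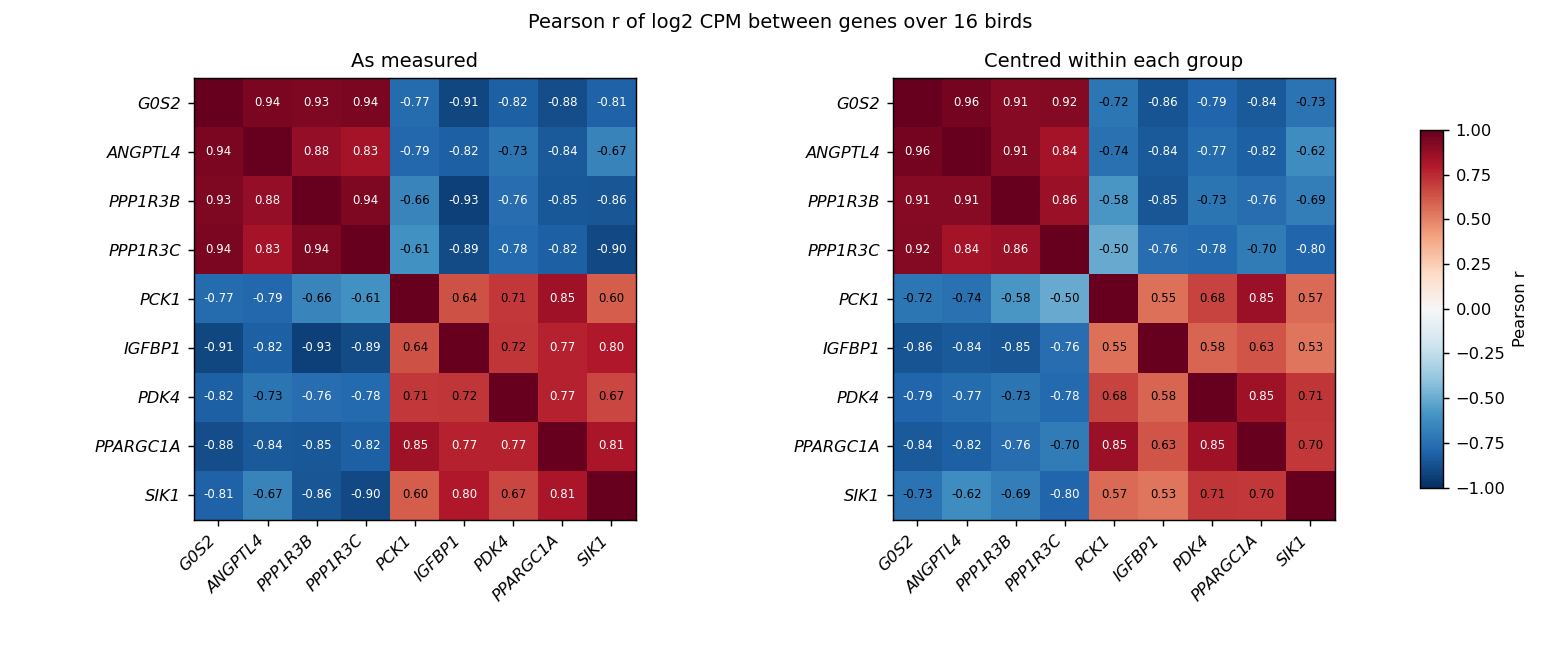
Pearson's r of log2 CPM between each pair of the 9 genes over 16 birds, as measured and after centring within each group. Pairs within the G0S2 group and within the PCK1 group are positive and pairs across them negative in both panels; after centring they run from -0.86 to 0.96. The split into these groups was made with the correlation known.

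A single axis held most of the variation. The first principal component of the 9 standardised genes took 78.1% of their variance after centring within groups and 82.7% as measured. The loadings ran from 0.34 to 0.37 in the G0S2 group and from -0.34 to -0.29 in the PCK1 group. Across the 16 birds the centred axis had r = 0.03 with the log2 library total, -0.41 with the share of mitochondrial transcripts and -0.31 with the first principal component of all genes. The axis as measured, with group differences kept, had r = 0.40 with the log2 library total. It had r = -0.04 with the mitochondrial share and -0.50 with the first component of all genes. The part of library size and of the mitochondrial share in the pattern was not tested. Of all 13748 genes, 5.40% had r above 0.5 with the axis and 6.16% below -0.5.

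The 9 genes were among the more variable transcripts of the liver, which was also part of their choice. The pooled within-group SD of log2 CPM was 3.21 for PCK1, rank 5 of 13748 genes, 2.49 for G0S2 (rank 24) and 1.98 for ANGPTL4 (rank 73). PPARGC1A (1.22), PPP1R3B (1.17), IGFBP1 (1.11), PDK4 (1.09), PPP1R3C (1.05) and SIK1 (0.98) followed, the last at rank 1053, and the median over all genes was 0.37. The spread was uneven between groups. The median SD of the 9 genes was 1.26 in solvent birds, 0.48 at 0.5 mg/kg and 1.65 at 5 mg/kg, whereas that of all genes was 0.35, 0.31 and 0.38. For 8 of the 9 genes the 0.5 mg/kg group had the smallest SD of the 3, which held for 44.7% of all genes. SIK1 was the exception, with an SD of 0.98 at 0.5 mg/kg and 0.80 in solvent birds.

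**Figure D5:**
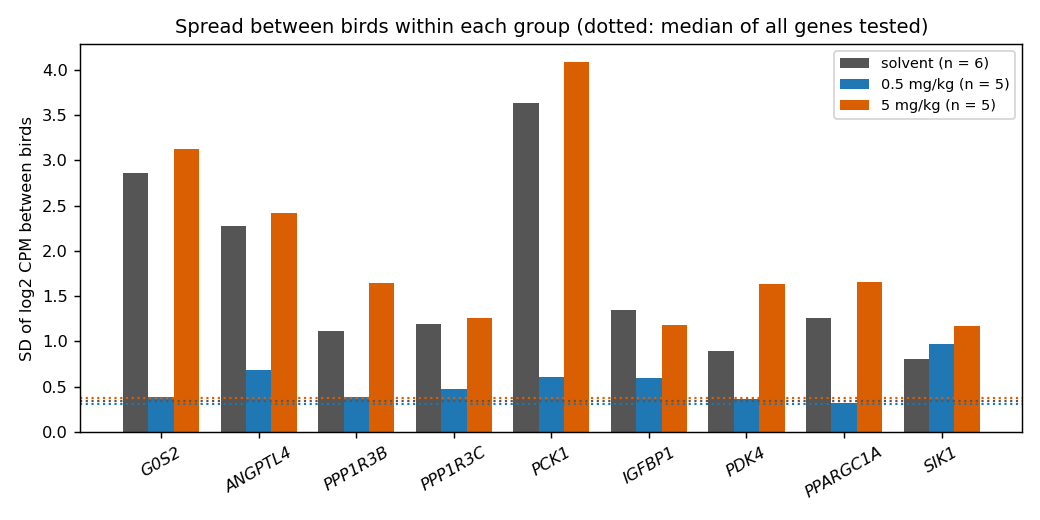
SD of log2 CPM between birds of a group for each of the 9 genes, as bars by group, with dotted lines at the median of all 13748 genes in each group. The SD of PCK1 is 3.64 in solvent birds, 0.61 at 0.5 mg/kg and 4.08 at 5 mg/kg, and SIK1 is the gene without its smallest value at 0.5 mg/kg.

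The replicate number class, which the choice of genes did not use, was tested with group in the model. The choice did use the spread between birds, against which this test sets a difference. A wide spread makes a gene less likely to pass, so the test was not independent of the choice. 0 of 9 genes passed in the comparison of numbers 4 to 6 with numbers 1 to 3, where 1.24% of all genes did (0.0727% higher and 1.17% lower), and 0 of 9 had an unadjusted p under 0.05 (9.57% of all genes). DESeq2 called 320 of the 20308 genes, 5941 of which had no adjusted p, and limma-voom called 172 of 13748. With either tool 0 of the 9 were among them. At such low shares of called genes, 0 of 9 is no result about these genes. The largest log2 fold change was that of PCK1, at -1.73 (SE 1.34; 47.7 ± 46.7 CPM in 7 birds against 146 ± 205 CPM in 9; adjusted p = 0.753). The other 8 lay between -0.56 for PPARGC1A and 0.52 for IGFBP1, with adjusted p from 0.818 to 0.971. High and low birds occurred in both classes: G0S2 ran from 4.89 to 373 CPM in solvent birds numbered 1 to 3 and from 4.85 to 299 CPM in those numbered 4 to 6. At 5 mg/kg it ran from 1.56 to 134 CPM and from 2.33 to 162 CPM. Whether the effect of either dose against solvent differed between the classes was tested as an interaction, with 2 or 3 birds of a class in each group. 0 of 9 genes passed, with adjusted p of at least 0.99, and 0 of all genes tested passed. The count is therefore no result about the 9 genes.

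G0S2, ANGPTL4, PPP1R3B, PCK1, IGFBP1 and PDK4 had 1 transcript row each. For PPP1R3C, PPARGC1A and SIK1 the most abundant row held a median of 97.7%, 96.4% and 97.9% of the gene's counts, and at least 86.1%, 73.6% and 84.0% in any bird.

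The genes whose centred levels were most like each of the 9 were sought among 9771 other named genes with a mean of at least 1 CPM. CEBPA, a transcription factor of hepatocytes and adipocytes, had the highest r with G0S2 (0.92) and with PPP1R3B (0.90), and was second for PPP1R3C (0.87). VASN, a membrane protein, was second for G0S2 (0.90), ANGPTL4 (0.91) and PPP1R3B (0.89), and ZFP36L1, an RNA-binding protein that speeds mRNA decay, was first for ANGPTL4 (0.91). CFL2, an actin-severing protein, was first for PPP1R3C (0.90). MYC, the proto-oncogene transcription factor, had the lowest r with G0S2 (-0.85) and with PPP1R3C (-0.95). The lowest r was that of FAM126B for ANGPTL4 (-0.86) and of MTMR7 for PPP1R3B (-0.85).

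For PCK1 the nearest genes were the copper pump ATP7A (0.91) and PNPLA2 (0.91), the lipase that G0S2 protein inhibits, and the lowest r was that of CCN1 (-0.86). IGFBP1 was nearest to FN3KRP (0.81) and KBTBD8 (0.78), and had its lowest r with HES4 (-0.95), a transcriptional repressor of the Hes family. FN3KRP ran from 0 to 20.8 CPM in solvent birds and from 0.027 to 22.3 CPM at 5 mg/kg. Its r thus includes values at the floor (Spearman's rho 0.80). PDK4 was nearest to FAM126B and TRPM1 (0.89 each). PPARGC1A was nearest to MBTPS1, a protease that activates sterol regulatory factors, and KMO, an enzyme of tryptophan breakdown (0.88 each), with SLC51B, a bile acid exporter subunit, lowest (-0.87). SIK1 was nearest to RIOK3 (0.83) and ARHGEF5 (0.82), with ATN1 lowest (-0.83). CEBPA was at 293 ± 99.6, 147 ± 20.9 and 206 ± 100.1 CPM in solvent, 0.5 mg/kg and 5 mg/kg birds, and MYC at 12.7 ± 5.89, 41.3 ± 10.8 and 22.1 ± 13.0 CPM. These genes are the extremes of many correlations and are named as a description.

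Other genes of the same pathways were counted by list. In 11 lists that exclude the 9 genes, 246 genes were tested, and edgeR called 0 of them in each of the 3 comparisons between groups. At an unadjusted p under 0.05 there were 29 of 246 for 0.5 mg/kg against solvent, 29 of 246 for 5 mg/kg against solvent and 32 of 246 between the doses. Of all genes, 8.25%, 9.76% and 7.25% were under 0.05. DESeq2 called 2 for 0.5 mg/kg against solvent (CEBPD and MYC). It called 7 for 5 mg/kg against solvent (IRS2, FADS2, G6PC2, KLF15, STC2, ERRFI1 and PFKFB2). Between the doses it called 5 (PPP1R3G, G6PC2, STC2, ZBTB16 and PFKFB2). In these comparisons 58, 9 and 0 of the 246 list genes had no adjusted p from DESeq2. The shares of all genes with an adjusted p were 0.617%, 1.11% and 0.139%, and limma-voom called 0 list genes in each.

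At 0.5 mg/kg, fatty acid oxidation and ketone synthesis genes were above 0 in 30 of 33 (median log2 fold change 0.20) and insulin and FOXO pathway genes in 19 of 28 (median 0.13), where 46.9% of all genes were above 0 with a median of -0.02. Gluconeogenesis and glycolysis genes were above 0 in 17 of 23 (median 0.16), glycogen genes in 15 of 22 (0.12), amino acid catabolism and shortage genes in 15 of 21 (0.12) and genes of fed-state lipogenesis in 17 of 22 (0.15). The remaining lists were above 0 in 12 of 26 for glucagon and cyclic AMP, 8 of 17 for lipolysis and lipoprotein lipase, 7 of 14 for the glucocorticoid response, 8 of 16 for the circadian clock and 6 of 24 for immediate early genes (median -0.34). None of the list genes named here was called by edgeR; CEBPD was called by DESeq2. GYS2, liver glycogen synthase, was at 0.69 (SE 0.25; 121 ± 14.7 against 74.99 ± 18.7 CPM), PPARA, the fatty acid receptor of the fasting response, at 0.50 (SE 0.17), and CREB3L3, a transcription factor active in the fasted liver, at 0.89 (SE 0.33). CEBPD, a transcription factor induced by glucocorticoids, was at 1.0 (SE 0.18).

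At 5 mg/kg against solvent the fatty acid oxidation list was above 0 in 22 of 33 (median 0.12), the glycogen list in 17 of 22 (0.08) and fed-state lipogenesis in 17 of 22 (0.28), where 49.8% of all genes were. Amino acid catabolism and shortage genes were above 0 in 5 of 21 (median -0.30). Gluconeogenesis and glycolysis genes were above 0 in 13 of 23 (0.04), insulin and FOXO genes in 15 of 28 (0.03) and lipolysis genes in 9 of 17 (0.07). Glucagon and cyclic AMP genes were so in 11 of 26 (-0.02) and glucocorticoid response genes in 6 of 14 (-0.22). The circadian clock list had 6 of 16 above 0 (-0.20) and immediate early genes 8 of 24 (-0.10). PPP1R3G, another glycogen-targeting subunit, was at -1.36 (SE 0.44; 28.6 ± 18.9 against 72.9 ± 28.4 CPM). KLF15, a factor of amino acid use in fasting, was at -1.07 (SE 0.21; 72.4 ± 13.9 against 152 ± 40.5 CPM; edgeR adjusted p = 0.0848). DESeq2 called KLF15 in this comparison. The r of PPP1R3G with the centred axis was -0.39, opposite in sign to the loadings of PPP1R3B and PPP1R3C. For 5 mg/kg against 0.5 mg/kg, 53% of all genes were above 0. Amino acid genes were in 2 of 21 (median -0.31), clock genes in 4 of 16 and fatty acid oxidation genes in 12 of 33. Gluconeogenesis had 10 of 23, glucagon 11 of 26, insulin and FOXO 12 of 28 and glucocorticoid response 6 of 14. Glycogen and fed-state lipogenesis had 14 of 22 each, lipolysis 10 of 17 and immediate early genes 14 of 24.

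The lists were also set against the centred axis of the 9 genes. Fed-state lipogenesis had a median r of 0.31 with 5 of 22 genes above 0.5 and 0 below -0.5, and immediate early genes had a median of 0.23. The glucagon list (26 genes) had 0 above 0.5 and 5 below -0.5, the insulin and FOXO list (28) 2 and 6. The fatty acid oxidation list (33) had 0 and 5. Medians were -0.14, -0.15 and -0.16. The circadian clock list had a median of -0.15 (2 and 1) and the glucocorticoid list -0.11 (1 and 1). Medians were 0.06 for gluconeogenesis and glycolysis (1 and 1) and -0.07 for glycogen (1 and 1). They were -0.08 for lipolysis (2 and 3) and 0.02 for amino acid genes (0 and 1). Over all genes the median was -0.01, with 5.40% above 0.5 and 6.16% below -0.5. MYC had r = -0.86 with the axis.

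Markers of other cells were measured beside the 9 genes, since ANGPTL4, G0S2, PCK1, PPP1R3C and PDK4 are also fat or muscle transcripts. ADIPOQ, the defining adipocyte hormone, was at 0.475 to 3.25 CPM, and the summed adipocyte list (7 of 8 genes in the file) was at 366 to 617 CPM in solvent birds, 520.1 to 845 CPM at 0.5 mg/kg and 396 to 607 CPM at 5 mg/kg. In the muscle list (10 of 11 genes), MYL1 was at 0 in every bird and the sum was 14.8 to 40.6 CPM. CIDEA alone was at 304 to 755 CPM and DES alone at 11.4 to 37.7 CPM. The adipocyte and muscle sums thus rested mainly on these single genes, and their r with the axis is to be read so. Centred within groups, the axis had r = -0.05 with the adipocyte sum, 0.45 with the muscle sum, -0.40 with endothelium, 0.36 with cholangiocytes and 0.26 with stellate cells. It had r of -0.11 to 0.05 with the sums for hepatocytes, exocrine pancreas, macrophages, lymphocytes and erythroid cells. The hepatocyte sum was 100273 to 193740 CPM in solvent birds, 159542 to 244563 CPM at 0.5 mg/kg and 144490 to 203307 CPM at 5 mg/kg. ALB alone was at 53516 to 156309 CPM. The macrophage sum was 363 to 720, 235 to 466 and 306 to 427 CPM in the same order. The part of these cells in the pattern, or in the shifts of the pathway lists, was not tested. Of the 14 hepatocyte genes 13 were in the file and 0 of them were at 0 in all birds.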

How the data were processed

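The authors deposited estimated counts for each transcript, with kallisto listed among the tools in the submitters' processing notes. The sources used here give neither its version nor the transcriptome release. The table held 47418 transcript rows with a gene number each. Counts were summed to 20308 genes and rounded, which changed a gene by at most 0.5. Estimated counts divide ambiguous reads among transcripts, which leaves near-identical or overlapping genes uncertain. Symbols came from RefSeq gene names (Coturnix japonica 2.1), used for names only.

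Analysis used R 4.3.3, edgeR 4.0.16, limma 3.58.1 and DESeq2 1.42.0. The filterByExpr defaults (minimum count 10, minimum total 15) left 13748 genes. Libraries were scaled by TMM, and a quasi-likelihood model of the 3 groups was fitted to all 16 libraries. The number class was tested with group in the model. P-values were adjusted over all genes by the Benjamini-Hochberg method at 0.05. They set a difference between groups against the spread between these birds. Standard errors were derived from the fold change and its F statistic. Log2 CPM used a prior count of 2. CPM values are not divided by transcript length, so levels are compared between birds and not between genes.

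The genes and the lists were chosen with earlier results of these data known. The text names the 9 genes, for each of them the 2 named genes with the highest and the 1 with the lowest centred correlation, and for each list the genes called or, with none called, the 1 with the lowest p; of these list genes a part is quoted, chosen after their values were seen. A few genes that this rule names are left out. Replicates within a group had r of 0.928 to 0.968 over all genes, and 0 libraries were identical. The code was tested on simulated data.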

Additional observations from a re-analysis of the deposited data

Results flagged for a closer look

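Of 27 sets of values (9 genes in 3 groups), 4 had a bird farther from the rest than the 95% critical value of Dixon's test, which chance gives for about 1 in 20 sets. The genes were chosen with their spread known, CPM values are skewed and the genes are correlated, so that rate does not apply to them and the birds are named as a description. PCK1 was at 511 CPM in solvent replicate 2, where the other 5 solvent birds had 0.692 to 60.7 CPM. PCK1 was at 485 CPM in 5 mg/kg replicate 2, where the other 4 birds had 0.333 to 73.3 CPM. IGFBP1 was at 64.0 CPM in solvent replicate 6, where the next bird had 20.9 CPM. SIK1 was at 30.2 CPM in solvent replicate 2, where the next bird had 14.5 CPM. Solvent replicates 2 and 6 were also the solvent birds with the least G0S2.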

How the results depend on the processing

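The count of genes called for 0.5 mg/kg against solvent, 0, was 42 with DESeq2 (26 higher), 6 with only the groups compared in the fit and 0 to 1 when 1 library was left out (1 without solvent replicate 1, 2 or 6). For 5 mg/kg against solvent, 6 became 160 with DESeq2 (95 higher), 2 with limma-voom, 3 with number class as a covariate, 0 with only the groups compared, 0 and 1 within numbers 1 to 3 and 4 to 6, and 0 to 21 leaving out 1 library. Between the doses, 0 became 26 with DESeq2 and 0 to 2 leaving out 1 library. The class comparison, 171, became 320 with DESeq2 and 130 to 171 leaving out 1 library. Deviations of same-numbered birds were little correlated: 2 of 15 same-numbered pairs had r over 0.1 (r of -0.08 to 0.20). Pairs with different numbers were not set beside them, so whether the replicate numbers pair the birds was not settled. With the replicate number as a block the counts were 0, 2 and 0, and with the number of the bird code as a block, chosen after seeing the data, 0, 1 and 0. PCK1 at 0.5 mg/kg against solvent, -0.06, was 4.19 with the replicate block, 3.16 with the code block and 3.20 with limma-voom, and between the doses, 0.30, it was -3.03 with the replicate block and -1.94 without 5 mg/kg replicate 2. In the class comparison, values that were not called changed sign when 1 library was left out: PCK1 ran from -2.10 to 0.25, PPP1R3C from -0.31 to 0.34, G0S2 from -0.54 to 1.29, ANGPTL4 from -0.18 to 1.14, IGFBP1 from -0.059 to 0.77, PDK4 from -0.32 to 0.76 and PPP1R3B from -0.22 to 0.56. The causes were not tested. With 5 or 6 birds a group and an SD near or above the mean, the wide groups limit every mean here. Promoter and protein sequences were not used here.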
